A study of Mus musculus with 2 samples.

Results

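The genes described here are 43 genes that give microglia and other macrophages their identity or carry out phagocytosis, among 21887 mouse coding genes. They were taken by name from a fixed list and located through RefSeq on GRCm38.p6, which is the mm10 build used for the peaks. All 43 were found. Membership used no measured value, though the list was chosen with earlier results of these data known. Each was scored against peaks of chromatin precipitated with an antibody to Nr4a2 (Nurr1), an orphan nuclear receptor. The cells were BV2, an immortalised mouse microglial line, with 1 anti-Nr4a2 library and 1 library of input DNA from the same line. Both carry the tag H2O2 in the peak file's header, whereas the labels name no treatment, genotype or further agent. There were no replicates, so nothing here measures variation between cultures, and no expression values were used here to check the line against its markers. After duplicate removal the anti-Nr4a2 library held 20365794 tags and the input 22520884, from which the authors called 7680 peaks, 7652 of them on chromosomes 1 to 19, X and Y.

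Microglia are the resident macrophages of the brain. Their identity rests on a core of transcription factors led by PU.1, the product of Spi1, together with survival signals through the CSF1 receptor and TGF-β. Mature microglia carry a set of sensing receptors such as P2ry12 and Cx3cr1, and they clear dying cells and debris through complement, TREM2 and the TAM receptors Axl and Mertk into lysosomes rich in cathepsins. Nr4a2 binds DNA as a monomer at an octamer called NBRE, or as a dimer, and in glia it is known for restraining inflammatory genes.

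No microglia gene had a peak at an end, 5 had one inside, and 10 were nearest, among coding genes, to 1 peak or more. A gene was scored at an end when a summit lay no more than 1000 bp from the start or the end of its record, inside when a summit lay between them, and nearest when no other coding gene had an end closer to a summit. The genes with a peak inside were Csf1r, Cx3cr1, Selplg, Itgax and Ptprc. These 5 were also nearest to a peak, and the other nearest genes were Irf8, Sall1, Mef2c, Cebpb and Ctsl. The remaining 33 genes met none of the rules.

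These counts lay close to the background of all coding genes. A peak at an end was found for 2.36% of the 21887 coding genes, a share that would give 1.01 of 43, so a count of 0 is not a result about the list. The exact Clopper-Pearson 95% upper limit for 0 of 43 is 8.22%, and a floor of 3 counts is 6.98%. A peak inside was found for 11.6% of coding genes and for 5 of the 43 (11.6%, exact 95% interval 3.89 to 25.1). The nearest rule called 21.1% of coding genes and 10 of the 43 (23.3%, exact 95% interval 11.8 to 38.6). At least 1 of the 3 rules called 22.2% of coding genes and the same 10 members. Among the 33 members covered by the set of annotated starts used, none had a summit within 1000 bp of a start. The share was 1.74% of the coding genes covered. Wider limits brought in 2 of 43 members within 3000 bp of an end (Cx3cr1 and Itgax), against 5.12% of coding genes. Within 10000 bp there were 9 of 43, a higher share than the 12.5% of coding genes, and this difference was not tested. With only peaks of a deposited q of at most 0.05, 4 of 43 members had a peak inside and 7 of 43 were nearest to one. The shares of coding genes were 6.75% and 12.8%. A gene with a wide territory in a peak-rich neighbourhood is more often nearest to a peak, so each member was also set beside the other coding genes of its own class. A class joins genes in the same decile of territory, meaning the length of chromosome that is closer to a gene's ends than to any other coding gene's, and the same decile of peak number in bins of 5 Mb. Over these classes the mean share was 2.24% at an end, 13.7% inside and 23.4% by nearest gene, which corresponds to 0.961, 5.88 and 10.1 of 43 genes. The classes held between 147 and 348 other genes. A gene's own peaks count in its bin, so its class is not independent of whether it is called. With classes of gene length and peak density instead, added after seeing the data, the mean share inside was 10.7%. Intervals and floors here cover counting error only. They treat the 43 genes as independent, although some are neighbours that share a closest peak.

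**Figure D1:**
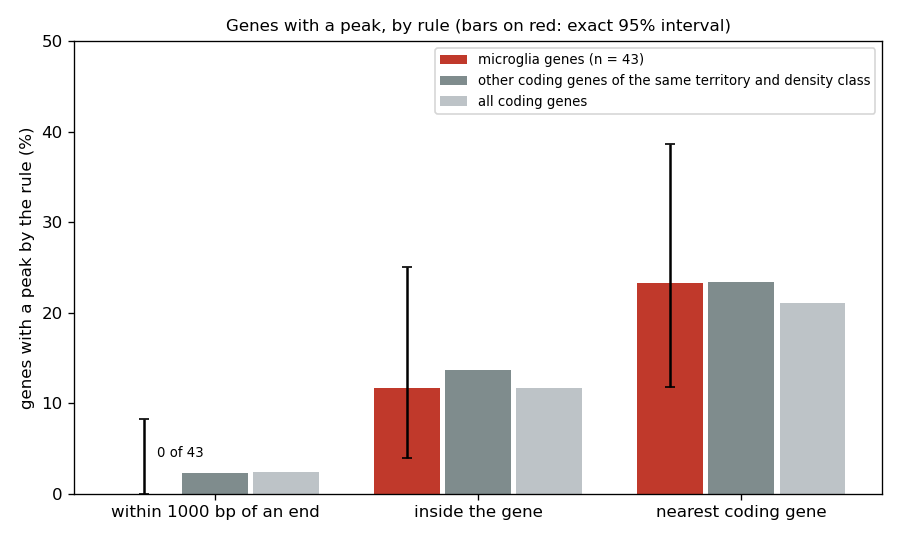
Share of genes with a peak (percent) under each of the 3 rules, for the 43 microglia genes with exact 95% intervals, for other coding genes in the same class of territory and peak density, and for all 21887 coding genes. The members stood at 0, 11.6% and 23.3%, and all 3 intervals include the shares of all coding genes (2.36%, 11.6% and 21.1%).

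Sequence was read for the stretch before the annotated gene start, from a set of RefSeq starts on GRCm38.p6 that covered 33 of the 43 genes. Not covered by that set were Spi1, Csf1r, P2ry6, Tmem119, Gpr34, Selplg, Cd14, Tyrobp, C1qa and Msr1. Shown are the 250 bases before the start of the 3 genes whose start lay closest to any summit, Itgax, Cx3cr1 and Cd68, and of Trem2, the only one of the 33 with the NBRE octamer AAAGGTCA in this stretch. Capitals mark matches, on either strand, to NBRE (AAAGGTCA), the nuclear receptor hexamer within it (AGGTCA), the core bound by PU.1 and other ETS factors (GAGGAA) and the AP-1 site (TGANTCA). The stretches are chr7:128129300-128129549 (plus strand) for Itgax, chr9:120068297-120068546 (minus) for Cx3cr1, chr11:69666171-69666420 (minus) for Cd68 and chr17:48346151-48346400 (plus) for Trem2, each read 5′ to 3′ on the gene's strand.
Itgax: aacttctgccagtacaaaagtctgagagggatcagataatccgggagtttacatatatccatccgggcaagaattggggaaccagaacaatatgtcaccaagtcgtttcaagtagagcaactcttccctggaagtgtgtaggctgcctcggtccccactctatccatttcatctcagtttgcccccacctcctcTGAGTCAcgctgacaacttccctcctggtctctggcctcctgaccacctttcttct
Cx3cr1: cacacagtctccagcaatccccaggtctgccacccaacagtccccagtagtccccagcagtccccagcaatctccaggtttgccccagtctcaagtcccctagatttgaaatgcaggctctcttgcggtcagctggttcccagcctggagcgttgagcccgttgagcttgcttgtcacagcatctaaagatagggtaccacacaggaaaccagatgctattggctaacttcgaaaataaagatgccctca
Cd68: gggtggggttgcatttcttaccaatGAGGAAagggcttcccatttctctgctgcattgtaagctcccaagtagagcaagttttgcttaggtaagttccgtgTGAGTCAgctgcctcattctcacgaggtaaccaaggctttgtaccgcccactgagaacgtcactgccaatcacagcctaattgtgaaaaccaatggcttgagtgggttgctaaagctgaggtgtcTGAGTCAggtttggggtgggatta
Trem2: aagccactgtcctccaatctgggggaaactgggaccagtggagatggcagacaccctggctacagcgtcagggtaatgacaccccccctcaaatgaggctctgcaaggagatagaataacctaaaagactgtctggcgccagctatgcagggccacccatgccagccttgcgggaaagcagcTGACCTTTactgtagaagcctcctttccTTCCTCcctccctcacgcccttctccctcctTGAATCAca

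None of these 250-base stretches held a peak summit. The closest summit was 2.28 kb from the start of Itgax, 2.45 kb from that of Cx3cr1 and 4.43 kb from that of Cd68. For Trem2 the closest summit was 145 kb from the start, so the one stretch with the Nr4a octamer was far from any peak. Cx3cr1 held none of the 4 words and Itgax held 1 AP-1 word. Over all annotated starts, NBRE was present in 1 of 43 stretches of these genes (2.33%) and in 1.34% of 32851 stretches of all genes. The AGGTCA hexamer was present in 9 of 43 (20.9%) against 14.0%, and AP-1 in 4 of 43 (9.30%) against 6.75%. The GAGGAA core was present in 18 of 43 (41.9%) against 23.3%. Several starts of a gene can share bases, so these stretches are not independent, and a match is only a run of letters.

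The lineage transcription factors had 4 of 8 genes nearest to a peak, with 12 peaks between them, but none at an end or inside. The 21.1% of all coding genes would give 1.69 of 8, and the shares of their own classes of territory and peak density 4.04. The count is thus at the level of those classes, which the genes' own peaks help to set. Sall1, a zinc finger repressor needed for the microglial state, was nearest to 4 peaks. The strongest, on chromosome 8 at 89364727 to 89364969, had 13 tags at its summit (exact Poisson 95% interval 6.92 to 22.2), 5.02-fold enrichment and a −log10 q of 2.69. It was the tallest peak of any member, yet its summit lay 321 kb before the start of Sall1. A pair of peaks of 8 and 10 tags followed at 412 and 413 kb, inside the noncoding gene Gm35593, and a peak of 9 tags lay 73.6 kb past the 3′ end. Every peak assigned to Sall1 was thus a distant one, in a territory where 96.6% of the 147 other genes of its class were nearest to a peak.

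Irf8, an interferon regulatory factor that partners PU.1, was nearest to a pair of peaks past its 3′ end. The first lay 55.7 kb past that end, with 11 tags, 4.31-fold and a −log10 q of 1.76. The second lay 106 kb past it, with 12 tags and 4.03-fold, inside the noncoding gene Gm39267, and at 518 bp it was the widest peak of any member. Both had a q of at most 0.05.

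Mef2c, a MADS-box factor of microglia and neurons, was nearest to 5 peaks, of which 1 had a q of at most 0.05. That one had 10 tags and 3.95-fold and lay 538 kb before the start. Peaks of 9, 8 and 9 tags lay 338, 65.4 and 21.1 kb before the nearest annotated start. The closest summit, 3.93 kb past the 3′ end, had 11 tags where the background was 3.62 tags, and its fold of 2.60 was the lowest of any member peak. Cebpb, a C/EBP factor of activated macrophages, was nearest to 1 peak of 10 tags and 3.22-fold, 5.82 kb past its 3′ end and inside the noncoding gene A530013C23Rik. Its −log10 q was 1.07, so its q was above 0.05.

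The other lineage factors met no rule. The closest summit to Spi1 was 21.6 kb away, with 10 tags, but it lay nearer to Slc39a13. Runx1, a haematopoietic factor, had its closest summit at 40.0 kb, nearer to Clic6. Cebpa, the C/EBP factor of myeloid commitment, and Mef2a, the relative of Mef2c, had theirs at 317 and 2086 kb, both on chromosome 7. Mef2a was the member farthest from any peak.

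**Figure D2:**
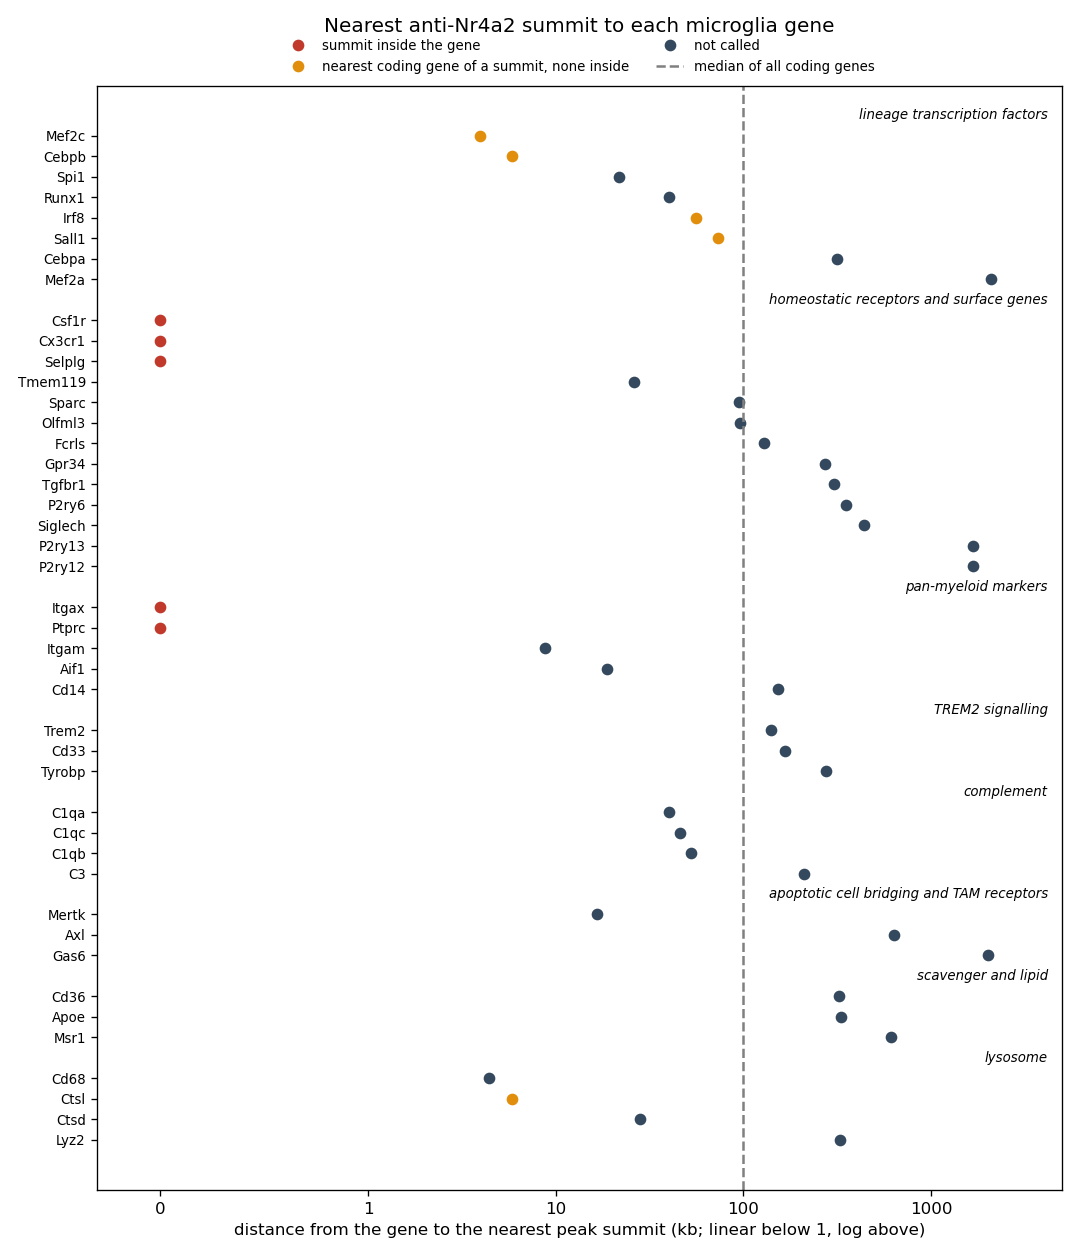
Distance in kb from each of the 43 genes to the nearest peak summit, grouped by role, with 0 for a summit inside the gene and colours for the rule met. The dashed line is the median of all coding genes, 99.0 kb, and 20 of the 43 genes lie beyond it.

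Among the 13 homeostatic receptor and surface genes, 3 had a peak inside and the other 10 met no rule. At the shares of all coding genes, 11.6% inside and 22.2% by any rule, 1.51 and 2.88 of 13 would be called, so these counts lie near the background. Csf1r encodes the receptor for CSF1 and IL-34 on which microglia depend for survival. The peak inside it, on chromosome 18 at 61125321 to 61125721, was 401 bp wide with 11 tags (exact Poisson 95% interval 5.49 to 19.7), 4.31-fold and a −log10 q of 1.76. The summit lay 5.50 kb from the nearer end of a 25.6 kb gene record and also inside the noncoding gene Gm52352.

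Selplg, which encodes the P-selectin ligand PSGL-1, held the peak of highest fold inside any member. That peak, on chromosome 5 at 113826448 to 113826611, had 12 tags (exact Poisson 95% interval 6.20 to 20.96), 4.67-fold and a −log10 q of 2.18. It had the minimum width of 164 bp and lay 6.02 kb from the nearer end. Tmem119, a microglial surface marker, is the neighbour of Selplg, and this same peak was its closest, at 26.1 kb. Cx3cr1, the fractalkine receptor gene, held a peak on chromosome 9 at 120065779 to 120066074, 2.45 kb downstream of its start. It had 9 tags (exact Poisson 95% interval 4.12 to 17.1) and 3.59-fold, with a q above 0.05 (−log10 q of 1.08), and it also lay inside the noncoding gene Gm33858. Exons, introns and untranslated stretches were not separated for any of these peaks.

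The purinergic receptor genes were far from peaks. P2ry12 and P2ry13, the neighbouring ADP receptor genes of resting microglia, shared their closest summit at 1682 and 1673 kb, a peak nearest to Wwtr1. P2ry6, the UDP receptor gene of phagocytosis, was 353 kb from its closest summit. Distances were 94.9 kb for Sparc and 95.9 kb for Olfml3, both secreted matrix proteins, and 129 kb for Fcrls, an Fc receptor-like gene. They were 272 kb for Gpr34, a lysophospholipid receptor gene, 302 kb for Tgfbr1, which encodes a TGF-β receptor chain, and 438 kb for Siglech, a sialic acid binding receptor gene.

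Of the 5 pan-myeloid markers, Itgax and Ptprc had a peak inside, where the 11.6% of all coding genes would give 0.581 of 5 and the shares of their classes 0.953. Counts this small cannot be read as a difference from that background. Itgax encodes the integrin CD11c and lies beside Itgam, which encodes CD11b. A peak inside Itgax, on chromosome 7 at 128141660 to 128141823, had 10 tags (exact Poisson 95% interval 4.80 to 18.4), 3.95-fold and a −log10 q of 1.39, and lay 12.2 kb downstream of the start. A second peak stood between the pair of integrin genes, 2.28 kb before the start of Itgax and 8.78 kb past the 3′ end of Itgam. It had 9 tags, 3.56-fold and a q above 0.05. At 2.25 kb from the Itgax record it was the closest summit to any gene end among the members, so the nearest miss of the 1000 bp limit was more than 1 kb outside it.

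Ptprc, which encodes the leukocyte phosphatase CD45, was nearest to 6 peaks, the most of any member, in a territory of 713 kb. In its class 96.6% of the 147 other genes were nearest to a peak. The one inside the gene, on chromosome 1 at 138077739 to 138077926, had 11 tags, 4.31-fold and a −log10 q of 1.76, and lay 15.0 kb from the 3′ end. The other 5 spread from 51.6 to 474 kb past that end, with 10, 8, 12, 7 and 7 tags in order of distance. Those of 10 and 12 tags had a q of at most 0.05. Aif1, which encodes the microglial marker IBA1, was 18.8 kb from a peak of 8 tags that lay nearer to Ltb. Cd14, which encodes the lipopolysaccharide co-receptor, was 152 kb from its closest summit.

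**Figure D3:**
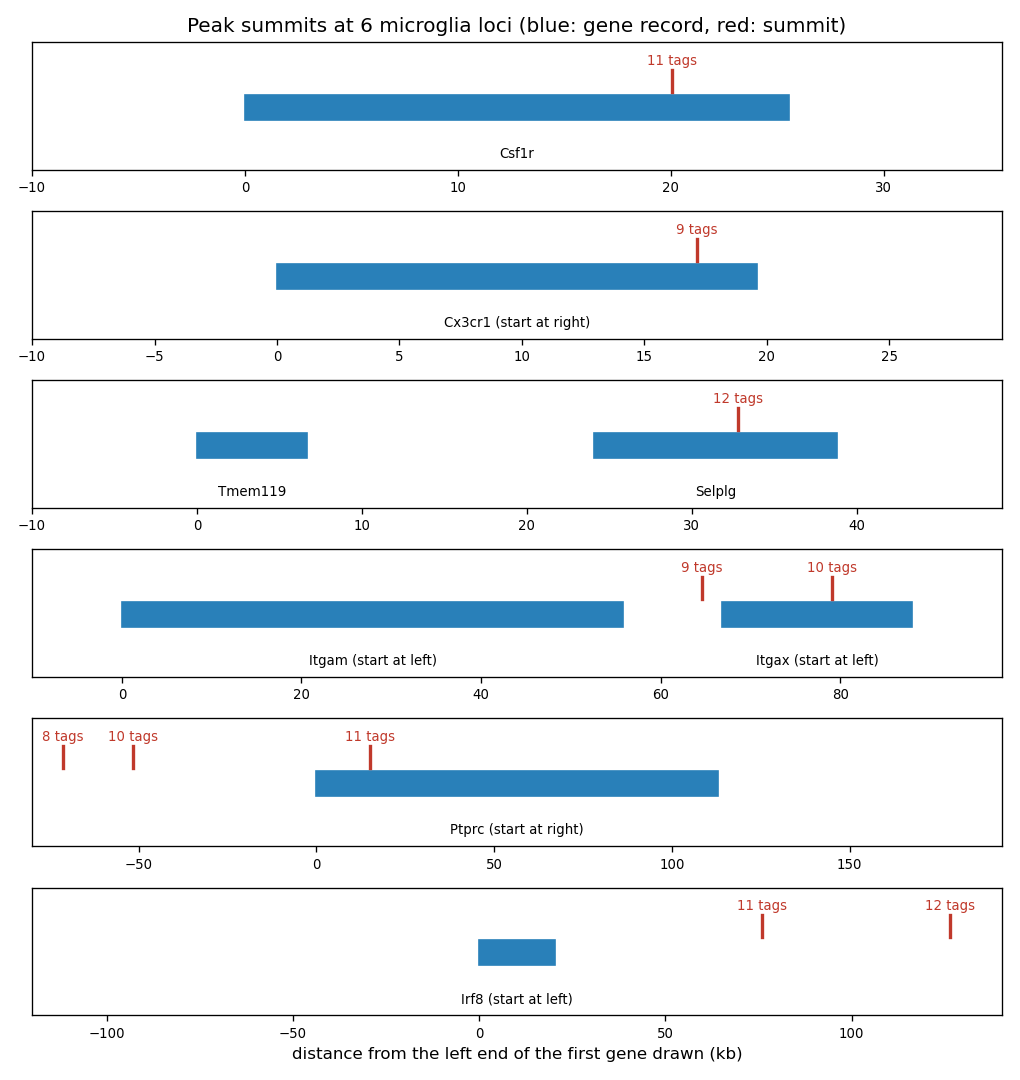
Gene records (blue) and peak summits (red, with their tags) at 6 loci, in kb from the left end of the first gene drawn, with the start marked where the promoter table gives it. Summits stand inside Csf1r, Cx3cr1, Selplg, Itgax and Ptprc, none within 1 kb of a gene end, and those of Irf8 lie past its 3′ end; 3 peaks nearest to Ptprc at 225 kb and beyond are not drawn.

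None of the 3 TREM2 signalling genes, 4 complement genes, 3 TAM receptor and ligand genes or 3 scavenger and lipid genes met any rule. The 22.2% of all coding genes would give 2.88 of these 13 genes, and the shares of their own classes 1.66, so a count of 0 is not a result about phagocytosis genes. Trem2, a lipid-sensing receptor gene, was 140 kb from its closest summit, its adaptor gene Tyrobp 274 kb, and Cd33, an inhibitory Siglec gene, 166 kb. The complement genes C1qa, C1qb and C1qc, which encode the chains of C1q, lie side by side and shared a closest peak of 11 tags and 4.31-fold at 40.2, 52.8 and 46.1 kb. That peak lay nearer to Epha8, so the C1q genes count as 1 location. C3, the central complement component, was 211 kb from a summit.

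Mertk was 16.7 kb from a peak of 9 tags that lay nearer to Tmem87b. Axl was 636 kb and Gas6, which encodes the ligand of both receptors, 2022 kb from a summit. Distances were 324 kb for Cd36 and 609 kb for Msr1, both scavenger receptor genes, and 330 kb for Apoe, the lipid carrier gene. Among 4 lysosomal genes, Ctsl, which encodes cathepsin L, was nearest to 1 peak, 5.86 kb past its 3′ end, where the share of all coding genes would give 0.843 of 4. That peak had 7 tags and 2.85-fold with a −log10 q of 0.540, and the pair of farthest Ptprc peaks had as few tags. Cd68, a lysosomal membrane marker, was 4.43 kb from a peak of 11 tags and 4.27-fold that lay nearer to the translation factor gene Eif4a1. Ctsd, the cathepsin D gene, was 28.1 kb and Lyz2, the lysozyme M gene, 327 kb from a summit. Lyz2 has a near-identical neighbour in Lyz1, so reads there are uncertain.

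The 24 peaks of these genes had the median strength of the list. Their median pileup was 10 tags and their median fold 3.59, and all 7652 placed peaks had the same medians. The member peaks ran from 7 to 13 tags, and the Poisson interval of each includes 10. All these intervals thus overlap, and differences in tag number among the peaks were not tested. A q of at most 0.05 was reached by 11 of 24 (45.8%) against 50.5% of placed peaks, and a q of at most 0.001 by none. The background equalled its genome-wide level of 1.79 tags in 13 of 24 (54.2%), against 49.5% of placed peaks. The peak of 13 tags near Sall1 was the only one of the 24 of 5-fold or more. Among the 7652 placed peaks 288 were, which is a similar share.

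**Figure D4:**
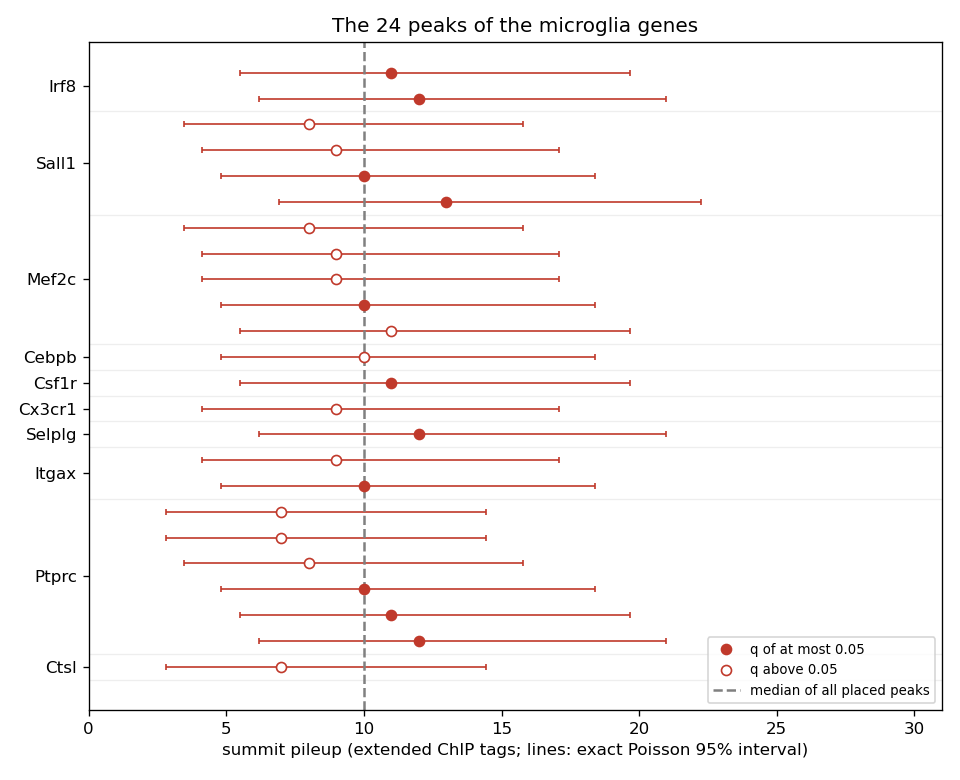
Summit pileup in extended ChIP tags of the 24 peaks, by gene, with exact Poisson 95% intervals as lines and filled points for a q of at most 0.05. Points run from 7 to 13 tags, and every interval crosses the dashed line at 10, the median of all placed peaks.

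Distances to the closest peak had nearly the same median as those of all coding genes. The median over the 43 genes was 94.9 kb, with quartiles of 17.7 and 320.4 kb, and over all coding genes it was 99.0 kb, with quartiles of 22.7 and 323 kb. The closest peak was more than 1000 kb away for 4 members (9.30%), namely Mef2a, Gas6, P2ry12 and P2ry13, and for 9.93% of coding genes. Members were also like coding genes in length, with medians of 16.9 and 17.2 kb, and in territory, with 48.4 and 46.3 kb. The members' closest peaks were 39 distinct peaks, since neighbouring genes shared them.

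Members fell unevenly over the chromosomes. Chromosome 7, where peaks are sparse, held 11 of the 43 (25.6%) against 9.27% of coding genes: Mef2a, Cebpa, P2ry6, Siglech, Itgam, Itgax, Tyrobp, Cd33, Axl, Apoe and Ctsd. Itgax was the only one of these that met a rule. Few coding genes of the chromosome met the nearest rule either. That rule called 4613 coding genes in all, of which 4472 lay outside chromosome 7, and the chromosome holds 2030 coding genes. The low count of members called there is therefore not a result about the list. The median distance was 317 kb for the 11 members there and 329 kb for all coding genes of the chromosome. Outside chromosome 7 it was 54.3 kb for the other 32 members and 88.6 kb for coding genes. There the nearest rule called 9 of 32 members and 22.5% of coding genes, a difference that was not tested. The 5 Mb bins of 10 members held 5 peaks or fewer, and none of these 10 met a rule; in such bins 6.11% of coding genes were nearest to a peak. Where a bin held 31 peaks or more, 3 of 5 members were nearest to a peak, against 35.6% of coding genes. Where it held 21 to 30, 1 of 8 members was, against 31.2%. The counts were 5 of 15 for 11 to 20 peaks, against 23.6%, and 1 of 5 for 6 to 10, against 15.8%. Counts this small cannot show whether the members follow the rise with density of all coding genes. P2ry12 and P2ry13, which lie side by side, had 17 peaks in their 5 Mb bin but 0 in their 1 Mb bin. Their shared closest summit was 1673 kb from P2ry13. A gene's own peaks count in its bin, so the number of peaks in a bin and the distance are not independent.

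**Figure D5:**
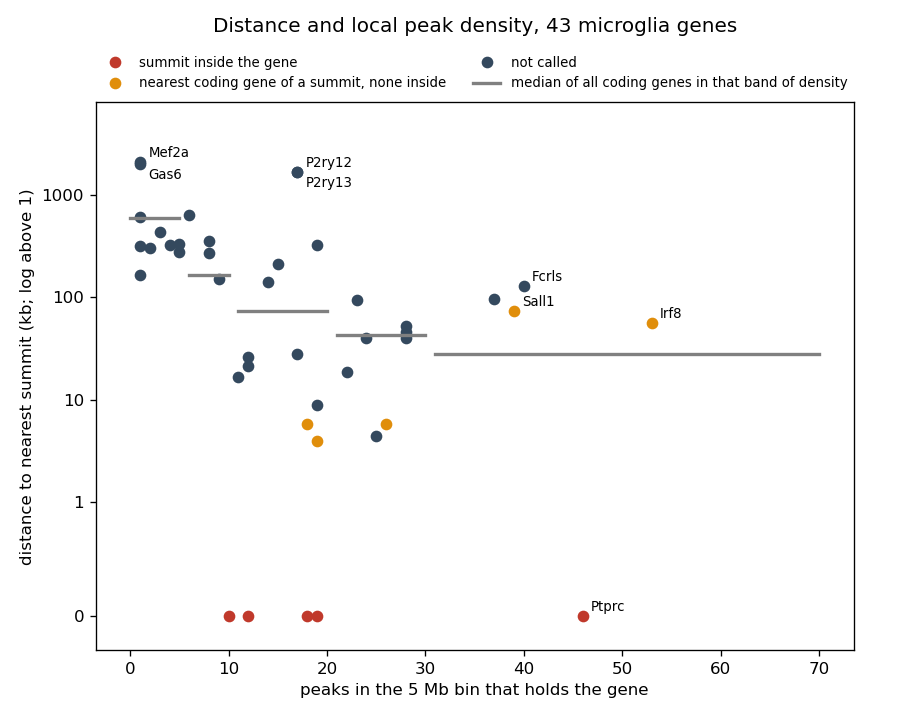
Distance to the nearest summit in kb against the number of peaks in the 5 Mb bin that holds the gene, for the 43 members, with grey lines at the median of all coding genes in each band of density. No member in a bin of 5 peaks or fewer met a rule, and P2ry12 and P2ry13 lie far above the line for their band (72.9 kb). The 1 Mb bin of these 2 neighbours held 0 peaks.

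In a wider list of 94 microglia and phagocyte genes, a peak at an end was found for 2 of 94 (2.13%), one inside for 11 (11.7%), and 20 (21.3%) were nearest to a peak. The shares of all coding genes were 2.36%, 11.6% and 21.1%, so the wider list lay at the background, and the genes named from it are descriptions. The peaks at an end, which may be the start or the 3′ end, were at Smad3 and C4b. Smad3, a TGF-β signal transducer gene, had 10 tags and 3.95-fold 631 bp from the nearer end of its record. C4b, a complement gene, had 10 tags and 3.95-fold 741 bp from the nearer end of its record. C4b has a near-identical copy, so its reads are uncertain. The tallest peak inside one of these genes was at Fcgr3, an Fc receptor gene, with 26 tags, a background of 11.7 tags, a fold of only 2.12 and a q above 0.05. Next came peaks of 11 tags inside Elmo1 (4.31-fold) and Dock2 (4.04-fold), which act through Rac, and inside Plcg2 (4.27-fold), which acts below TREM2. They were followed by Smad3 and Dock1 with 10 tags and 3.95-fold each, and the Smad3 peak is the one already named at its end. Elmo1, Dock1 and Dock2 are long genes of 518, 503 and 557 kb, and Dock2 was not the nearest coding gene of any peak. Csf1, which encodes a ligand of the Csf1r product, held a peak of 9 tags and 3.59-fold.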

How the data were processed

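The submitters' processing notes name Bowtie2, MACS2 2.2.6, ChIPseeker and the build mm10. Peaks were called with MACS 2.1.4 on 1 ChIP library against 1 input with a p-value cutoff of 0.001, keeping 1 tag per position and scaling the larger library down, per the file headers. The deposited pileup is a coverage signal, the number of tags extended to 164 bp over the summit. The deposited −log10 p and −log10 q compare it with a local background, and the fold enrichment in the deposited file is the ratio (pileup + 1) over (background + 1), from which the background was recovered (genome-wide value matched to within 0.002). These are the authors' values and only describe or filter peaks within the list. The header says that q is not reported, yet the column holds values, used as given.

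Summits were set against RefSeq records (21887 coding genes; 39334 records other than pseudogenes). Gene starts and the sequences shown are RefSeq's, on GRCm38.p6. With 1 library per kind no test between samples exists, and none was run. Members, lists and rules were chosen with earlier results of these data known. Every member is reported; from the wider list, genes with a gene-end peak and the 6 of highest pileup inside were named, with ties in pileup ordered by fold (Entpd1, with 10 tags like the last 2 named, came next at 3.92-fold), an order set after the values were seen; Csf1 was also added then. Scoring was tested on simulated data. Python 3.11.15, pandas 2.3.3 and scipy 1.17.1 were used.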

Additional observations from a re-analysis of the deposited data

How the results depend on the processing

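Pileups of 7 to 13 tags limit every peak described, and stricter thresholds leave few or none. With a q of at most 0.05, 7 of 43 members remained nearest to a peak and 4 of 43 had one inside, against 12.8% and 6.75% of coding genes. The member peaks fell to 11 of 24 and the median distance rose to 238 kb (210.2 kb over all coding genes). With a q of at most 0.001 no member was nearest, had a peak inside or met any rule, and there were 0 member peaks. Among all coding genes 0.804%, 0.379% and 0.864% did, so these counts of 0 are near the background. The median distance was then 4550 kb (6636 kb over all coding genes). With peaks of 5-fold or more, 0 members had a peak inside, against 0.530% of coding genes. Only 1 member (Sall1) was nearest and met any rule, with 1 peak, against 1.25% and 1.33% of coding genes. The median distance was 3288 kb (3354 kb over all coding genes). Fewer peaks enter these settings by construction. Members at an end numbered 0 within 500 and 1000 bp and 2 of 43 within 3000 bp (Cx3cr1 and Itgax, against 5.12% of coding genes). Within 10000 bp they numbered 9 of 43, a higher share than the 12.5% of coding genes. Of the 33 members covered by the set of annotated starts, 0 had a summit within 1000 bp of a start, against 1.74% of such coding genes. With noncoding records counted as neighbours, 6 members were nearest to a peak (Ctsl, Cx3cr1, Itgax, Mef2c, Ptprc and Selplg) against 15.1% of coding genes. Any base of the peak in place of the summit, nearest by gene body, a limit of 100 kb, leaving out chromosome 7 and the other class definitions kept each count or share within 1.5 times. Leaving out chromosome 7, classes of gene length and the setting by annotated start were added after seeing the data. No paired analysis was possible because there was 1 library of each kind.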

Other observations

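Genes that mark other cells of the nervous and immune systems showed shares that were not compared by test with those of the microglia genes. Of 31 such genes, 1 had a peak at an end, 2 had one inside and 6 were nearest to a peak (19.4%). The shares of all coding genes were 2.36%, 11.6% and 21.1%. The peak at an end belonged to Pdgfra, a gene of oligodendrocyte precursors, with 11 tags and 4.10-fold at 659 bp, and Slc1a3, an astrocyte glutamate transporter gene, held a peak of 8 tags and 3.23-fold with a q above 0.05. None of the 10 neuron genes or 10 lymphocyte genes had a peak inside, where the share of all coding genes would give 1.16 of 10, so these counts of 0 are near the background.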
